A study of Mus musculus with 6 samples.

Results

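Cortical inhibition is carried by interneurons that make GABA, and 10 genes that mark these cells or make their transmitter are described here in the somatosensory cortex of mice lacking *Mef2c* in excitatory neurons. *Gad1* and *Gad2* make GABA, *Pvalb*, *Calb1* and *Calb2* encode calcium-binding proteins that divide interneurons into classes, *Reln* encodes a secreted glycoprotein, *Dlx1*, *Lhx6* and *Sox6* encode transcription factors of the interneuron lineage, and *Erbb4* encodes a neuregulin receptor. They were taken by gene symbol, with earlier results of these data known, and are 10 of the 21667 named genes in the data.

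RNA-Seq was performed on somatosensory cortex of 3 control males (*Mef2c* fl/fl, without Cre) and 3 *Mef2c* cKO males (*Mef2c* fl/fl with *Emx1*-Cre), all on a mixed SVeV-129 and C57BL/6J background. Replicate 1 of each genotype was 14 weeks old and replicates 2 and 3 were 12 weeks old. Cre sits in the endogenous *Emx1* gene and acts in forebrain excitatory neurons and some glia from embryonic life, so the floxed *Mef2c* alleles are present but intact in the controls and, by design, in the interneurons of both genotypes. The question put to these 10 genes is whether genes of cells outside the *Emx1* lineage differ when *Mef2c* is deleted in the excitatory neurons around them.

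Cortical interneurons are born in the ventral forebrain and migrate into the cortex. *Dlx1* acts early in that lineage, and *Lhx6* and then *Sox6* act in the branch that yields parvalbumin and somatostatin cells. *Calb2* marks mainly cells of the other branch, and *Reln* marks neurogliaform and many somatostatin cells in the adult. None of the 10 is wholly private to interneurons. *Calb1* is also made by upper-layer pyramidal neurons and by striatal projection neurons, *Gad1* and *Gad2* by striatal neurons, *Sox6* by oligodendrocyte precursors and *Reln* by Cajal-Retzius cells. In tissue RNA, fewer cells of a type and less RNA per cell cannot be told apart.

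Among the 10 genes, RefSeq gives a start site to 8 and none is listed for *Calb1* and *Calb2* in the table used here. The 250 bases before each start were searched for the binding consensus of MEF2 proteins, a 10-base AT-rich sequence that reads the same on both strands. Of 16 member windows, 2 held a match, 1 of 2 starts of *Pvalb* and 1 of 6 starts of *Sox6*, while 2.92% of all 32851 windows did. The *Pvalb* windows are shown because *Pvalb* is 1 of the genes that fell, and the *Sox6* window because it holds the other match. All are on the minus strand of GRCm38.p6 and are written 5′ to 3′ with the match in capitals. The upstream *Pvalb* start lies after chr15:78206401-78206650 in the direction of transcription, the downstream *Pvalb* start after chr15:78204238-78204487 and the *Sox6* start after chr7:115801610-115801859.
Pvalb, upstream start: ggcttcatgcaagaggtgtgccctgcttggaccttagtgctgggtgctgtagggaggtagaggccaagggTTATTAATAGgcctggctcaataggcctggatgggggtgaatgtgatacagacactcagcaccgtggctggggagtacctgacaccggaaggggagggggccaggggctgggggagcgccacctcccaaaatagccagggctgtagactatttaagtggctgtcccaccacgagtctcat
Pvalb, downstream start: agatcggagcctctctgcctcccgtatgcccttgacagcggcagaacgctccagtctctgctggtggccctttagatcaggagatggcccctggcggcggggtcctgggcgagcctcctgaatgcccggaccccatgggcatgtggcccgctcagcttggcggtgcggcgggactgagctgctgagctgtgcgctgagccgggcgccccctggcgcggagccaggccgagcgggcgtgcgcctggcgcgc
Sox6, start with a match: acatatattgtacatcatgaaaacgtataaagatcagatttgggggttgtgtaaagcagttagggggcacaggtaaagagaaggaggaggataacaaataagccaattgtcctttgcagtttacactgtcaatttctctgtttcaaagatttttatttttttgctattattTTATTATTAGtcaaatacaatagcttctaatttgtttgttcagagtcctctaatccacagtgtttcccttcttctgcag

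In *Pvalb* the match covers bases 180 to 171 before the start and in *Sox6* bases 79 to 70. The upstream *Pvalb* window is 58.4% G and C with 4 CG pairs, the downstream 1 is 71.6% with 23 CG pairs. A match is a string of letters and was not tested as a binding site.

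Read numbers per mouse were 34011091, 49393940 and 51542029 in control replicates 1 to 3 and 32743798, 19326365 and 54128334 in *Mef2c* cKO replicates 1 to 3. Values below are CPM, a gene's reads for each 1000000 reads of the mouse, and each of the 10 genes had 119 to 14877 reads in every mouse. The reads of the whole *Mef2c* gene were higher in *Mef2c* cKO cortex, with 800, 772 and 800 CPM in controls and 1231, 1276 and 1468 CPM in cKO mice. Such gene-level reads include the exons that the deletion leaves in place and so do not check the genotype labels. *Emx1*, the gene that carries Cre, had 16.5 to 20.3 CPM in controls and 4.97 to 5.71 CPM in cKO mice. Of the cortical markers, *Slc17a7* and the other 11 pyramidal neuron genes were present in every mouse. *Mef2c* cKO replicate 2 stood apart in its striatal markers. The 7 of them summed to 134 CPM in that mouse, 330 and 292 CPM in the other *Mef2c* cKO mice and 175 to 234 CPM in controls, and none of the 7 was at 0. *Drd1*, part of that sum, was not low in that mouse, at 49.6 CPM against 17.7 to 21.4 CPM in controls.

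The clearest differences were in 2 calcium-binding proteins. *Pvalb* fell to 57.5% of its control level and *Calb1* to 37.7%, while the GABA enzymes, the lineage transcription factors, *Calb2*, *Reln* and *Erbb4* did not pass the cut-offs (limma, Benjamini-Hochberg adjusted p under 0.05 and an absolute log2 fold change above 0.3). The 2 genes that passed, both decreased, are 2 of 10, against 13.6% of all 14623 tested genes past the cut-offs in either direction with 7.75% lower and 5.87% higher in cKO mice. That share is close to the background for so few genes, and no excess of changes is read from it. The median log2 fold change of the 10 genes was -0.13, against 0.01 over all tested genes. In 5 of the 10 genes the genotypes did not overlap (*Pvalb*, *Calb1* and *Reln* lower, *Gad2* and *Dlx1* higher in cKO mice), and this was so for 33.9% of all tested genes, 17.6% lower and 16.3% higher.

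**Figure D1:**
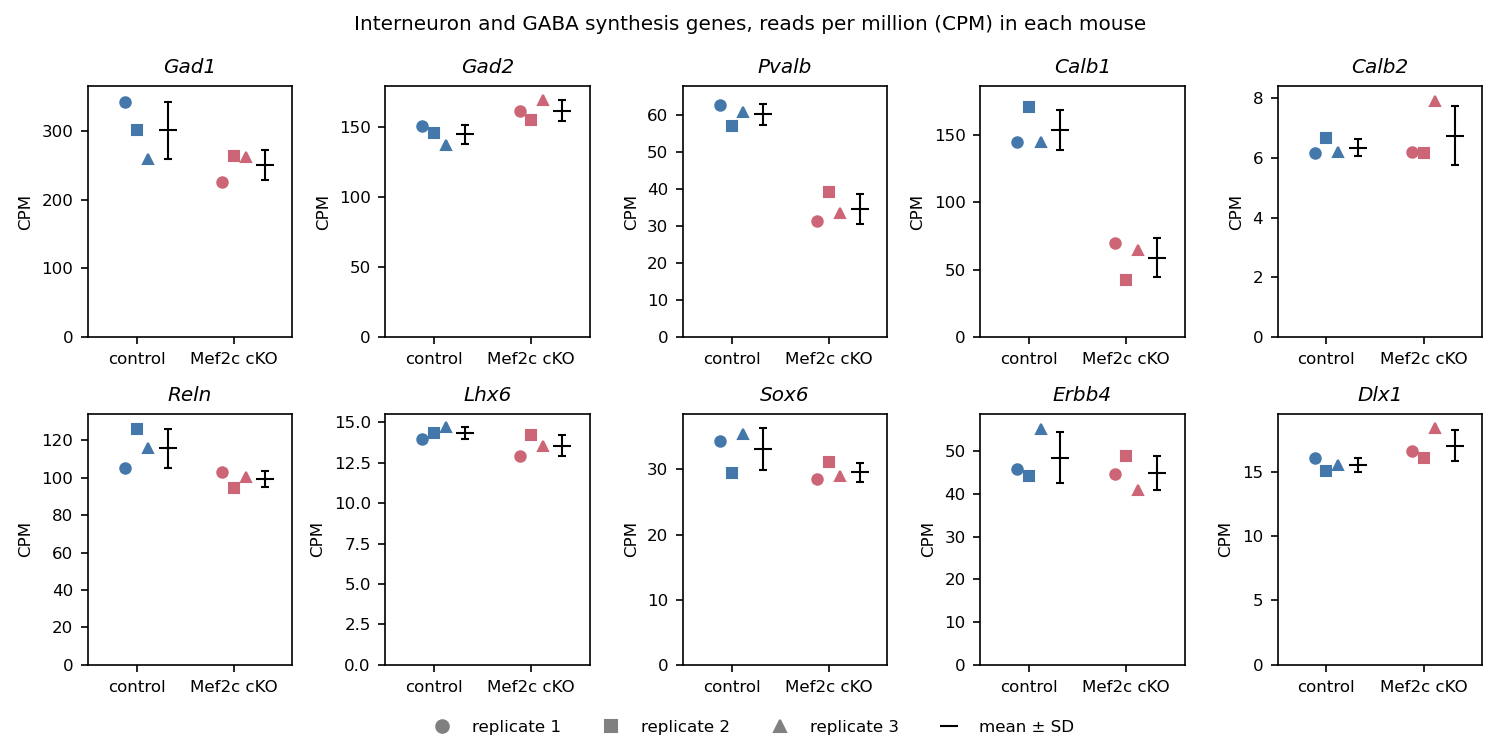
CPM (y axis from 0) of the 10 genes in each of 3 control (blue) and 3 *Mef2c* cKO mice (red), with the marker shape giving the replicate number and the bar the mean ± SD. *Pvalb* and *Calb1* separate widely, at 57.2 to 62.7 against 31.5 to 39.3 CPM and 145 to 171 against 42.6 to 69.6 CPM, while the other genes overlap or lie close together.

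*Pvalb* (ENSMUSG00000005716, chr15:78021544-78036830, minus strand, NCBIM37) encodes parvalbumin, a fast calcium buffer of basket and chandelier cells, the interneurons that contact the soma and the axon's start. It had 62.7, 57.2 and 60.9 CPM in control replicates 1 to 3 and 31.5, 39.3 and 33.5 CPM in *Mef2c* cKO replicates 1 to 3. The highest cKO mouse lay far below the lowest control. The mean was 60.3 ± 2.79 CPM (SD, n = 3) in controls and 34.7 ± 4.05 CPM (SD, n = 3) in cKO mice, a log2 fold change of -0.80 (SE 0.09, adjusted p = 3.03e-04).

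*Calb1* (ENSMUSG00000028222, chr4:15808411-15835211, plus strand, NCBIM37) encodes calbindin, a calcium buffer of many somatostatin interneurons and of pyramidal neurons. It had 145, 171 and 145 CPM in control replicates 1 to 3 and 69.6, 42.6 and 64.7 CPM in *Mef2c* cKO replicates 1 to 3. Every cKO mouse lay below every control, and cKO replicate 2 was the lowest. The log2 fold change was -1.41 (SE 0.16, adjusted p = 3.94e-04), the largest of the 10 genes in size. Striatal neurons make calbindin too, and cKO replicate 2 was also the mouse low in striatal markers. Without that mouse the log2 fold change of *Calb1* was -1.19 (adjusted p = 1.15e-04) and that of *Pvalb* -0.89 (adjusted p = 2.08e-04). Markers of the upper-layer pyramidal neurons that share *Calb1* also moved with genotype. *Cux2* had 89.5 to 100 CPM in controls and 26.4 to 31.4 CPM in cKO mice, and *Rorb*, of layer IV, 25.4 to 27.0 and 6.99 to 8.49 CPM. Of all 12 pyramidal neuron markers 4 rose and 4 fell, among the latter *Emx1*, the gene that carries Cre in the cKO mice. The sum of the 12 was 5942 to 7069 CPM in controls and 6122 to 7167 CPM in cKO mice. The part of pyramidal neurons in the *Calb1* result was not tested.

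*Calb2* (ENSMUSG00000003657, chr8:112661402-112692110, minus strand, NCBIM37) encodes calretinin, which marks many interneurons that contact other interneurons. It had 6.17, 6.68 and 6.19 CPM in controls and 6.20, 6.16 and 7.91 CPM in cKO mice. The genotypes overlapped, and only cKO replicate 3 lay above the controls. The log2 fold change was 0.08 with a 95% interval of -0.21 to 0.37 (adjusted p = 0.740), and it was -0.04 without that mouse. *Calb2* was thus the 1 calcium-binding protein of the 3 that did not pass, with an interval of 0.863 to 1.29 times its control level.

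**Figure D2:**
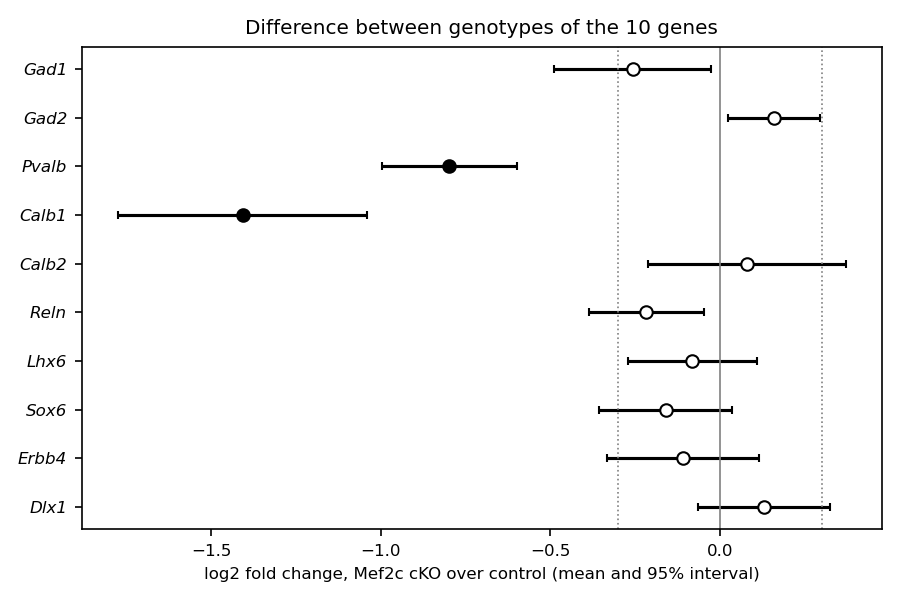
Log2 fold change of *Mef2c* cKO over control (x axis) for each of the 10 genes, with the limma 95% interval as a bar; filled points passed the cut-offs and dotted lines mark 0.3 on either side of 0. *Calb1* at -1.41 and *Pvalb* at -0.80 stand clear of the other 8 genes, whose values run from -0.26 to 0.16.

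Neither GABA-synthesizing enzyme passed the cut-offs, and their fold changes had opposite signs. *Gad1* (ENSMUSG00000070880, chr2:70391129-70440071, plus strand, NCBIM37) encodes the larger glutamate decarboxylase, which supplies most of the brain's GABA. It had 342, 301 and 259 CPM in control replicates 1 to 3 and 226, 263 and 263 CPM in cKO replicates 1 to 3. Control replicate 3 lay within the range of the cKO mice. The log2 fold change was -0.26 with a 95% interval of -0.49 to -0.03 (adjusted p = 0.133). Of 17 alternatives it passed the cut-offs in 1, without that control, at -0.36 (adjusted p = 0.0355). The difference was smaller without control replicate 1, at -0.16 (adjusted p = 0.347), and with the 12-week-old mice alone, at -0.09 (adjusted p = 0.613).

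*Gad2* (ENSMUSG00000026787, chr2:22477725-22549394, plus strand, NCBIM37) encodes the smaller enzyme, found mainly at nerve terminals. It had 151, 146 and 137 CPM in controls and 162, 155 and 169 CPM in cKO mice. All 3 cKO mice lay above the controls, by little. The log2 fold change was 0.16 with a 95% interval of 0.02 to 0.30 (adjusted p = 0.112).

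The ratio of *Gad1* to *Gad2* reads within a mouse does not depend on sequencing depth, and was computed after the values of both genes had been seen. It was 2.27, 2.06 and 1.89 in control replicates 1 to 3 and 1.40, 1.70 and 1.55 in cKO replicates 1 to 3. The ratio was lower in 3 of 3 cKO mice than in any control, with means of 2.07 ± 0.19 and 1.55 ± 0.15 (SD, n = 3 each, two-sided exact permutation p = 0.1, the smallest that 3 mice against 3 allow). The summed reads of both enzymes overlapped between genotypes, at 397 to 493 CPM in controls and 388 to 432 CPM in cKO mice (two-sided exact permutation p = 0.4).

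None of the 3 lineage transcription factors passed the cut-offs. *Lhx6* (ENSMUSG00000026890, chr2:35937470-35960928, minus strand, NCBIM37), which parvalbumin and somatostatin cells keep into adulthood, had 14.0, 14.3 and 14.7 CPM in controls and 12.9, 14.2 and 13.5 CPM in cKO mice. The genotypes overlapped, with a log2 fold change of -0.08 and a 95% interval of -0.27 to 0.11 (adjusted p = 0.589). As a fold, that interval runs from 0.828 to 1.08 times the control level. Set against *Lhx6*, *Pvalb* had 4.49, 3.997 and 4.15 reads for each *Lhx6* read in control replicates 1 to 3 and 2.44, 2.76 and 2.48 in cKO replicates 1 to 3. This ratio, also chosen after the values were seen, was lower in 3 of 3 cKO mice (two-sided exact permutation p = 0.1, the smallest possible).

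*Sox6* (ENSMUSG00000051910, chr7:122614858-123182258, minus strand, NCBIM37), which acts after *Lhx6* in the same branch, had 34.4, 29.4 and 35.4 CPM in controls and 28.6, 31.2 and 28.9 CPM in cKO mice. Control replicate 2 lay among the cKO mice, and the log2 fold change was -0.16 with a 95% interval of -0.35 to 0.04 (adjusted p = 0.272). *Dlx1* (ENSMUSG00000041911, chr2:71366170-71372038, plus strand, NCBIM37), a homeobox factor that acts early in the interneuron lineage, had 16.0, 15.002 and 15.5 CPM in controls and 16.6, 16.0 and 18.4 CPM in cKO mice. Its genotypes came close without overlapping, and the log2 fold change was 0.13 with a 95% interval of -0.07 to 0.33 (adjusted p = 0.372).

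*Reln* (ENSMUSG00000042453, chr5:21390272-21850523, minus strand, NCBIM37) encodes reelin, a large secreted protein that binds lipoprotein receptors on neighbouring neurons. It had 105, 126 and 116 CPM in control replicates 1 to 3 and 103, 94.5 and 101 CPM in cKO replicates 1 to 3. All cKO mice lay below the controls, by a narrow margin for cKO replicate 1. The log2 fold change was -0.22 with a 95% interval of -0.38 to -0.05 (adjusted p = 0.0864), and with the 12-week-old mice alone it was -0.31 and passed the cut-offs (adjusted p = 0.0496). Of 3 Cajal-Retzius markers, whose cells also make reelin, *Trp73* rose from 0.29 to 0.59 CPM in controls to 2.93 to 3.36 CPM in cKO mice. *Lhx5* did not rise, at 0.38 to 0.62 CPM in controls and 0.16 to 0.61 CPM in cKO mice. *Lhx1* was at or near 0. The 3 summed to 0.91 to 1.01 CPM in controls and 3.31 to 3.54 CPM in cKO mice. That rise came from *Trp73* alone and is not read as a rise of the group. The part of these cells in the *Reln* values was not tested.

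*Erbb4* (ENSMUSG00000062209, chr1:68078760-69154633, minus strand, NCBIM37) encodes a receptor tyrosine kinase through which neuregulins act on interneurons, above all parvalbumin cells. It had 45.8, 44.3 and 55.2 CPM in controls and 44.7, 48.8 and 40.9 CPM in cKO mice. The genotypes overlapped, with a log2 fold change of -0.11 and a 95% interval of -0.33 to 0.11 (adjusted p = 0.524).

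**Figure D3:**
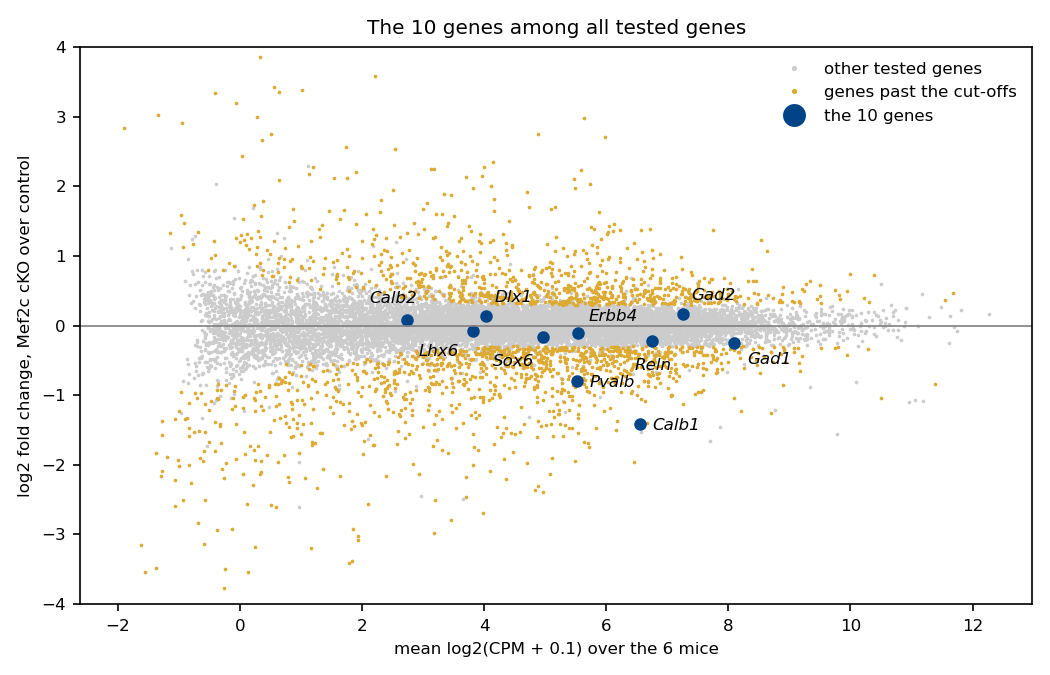
Log2 fold change of *Mef2c* cKO over control (y axis) against mean log2(CPM + 0.1) over the 6 mice (x axis) for the 14623 tested genes, with genes past the cut-offs in yellow and the 10 genes in blue; 6 genes lie outside the y range. *Calb1* and *Pvalb* lie among the genes past the cut-offs and the other 8 within the grey band.

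Levels can be ordered between genes only per length. In controls, per kilobase of annotated exon, the median was 58.5 CPM for *Pvalb*, 39.4 for *Gad1*, 29.9 for *Calb1* and 24.8 for *Gad2*. *Gad1* and *Calb1* overlapped in that order, while *Pvalb* and *Gad2* were clear of their neighbours. The others were far lower, from 5.84 CPM per kilobase for *Reln* to 2.87 for *Dlx1*. Among these, *Erbb4*, *Sox6* and *Calb2* overlapped, and so did *Lhx6* and *Dlx1*. In *Mef2c* cKO cortex *Gad1* came first, at a median of 34.4 CPM per kilobase, *Pvalb* next at 32.2, *Gad2* at 27.5 and *Calb1* at 13.4. The ranges of *Gad1* and *Pvalb*, 29.6 to 34.5 and 30.2 to 37.7 CPM per kilobase, overlapped.

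Other genes of the same pathways were taken from lists of 85 genes, of which 83 were tested and 27 passed the cut-offs, 12 lower and 15 higher in *Mef2c* cKO cortex. Of all 14623 tested genes 13.6% passed, 7.75% lower and 5.87% higher, the share to set beside this count and the list counts below. These lists were drawn up with earlier results of the data known, so no excess over that share is read from them. None of the 12 genes for GABA synthesis, packaging, uptake and breakdown passed in limma or with voom weights, 4 and 5 of them having an unadjusted p under 0.05, and their median log2 fold change was -0.04. *Glul*, which makes the glutamine that neurons turn into glutamate, had 1336 to 1360 CPM in controls and 1285 to 1396 CPM in cKO mice.

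**Figure D4:**
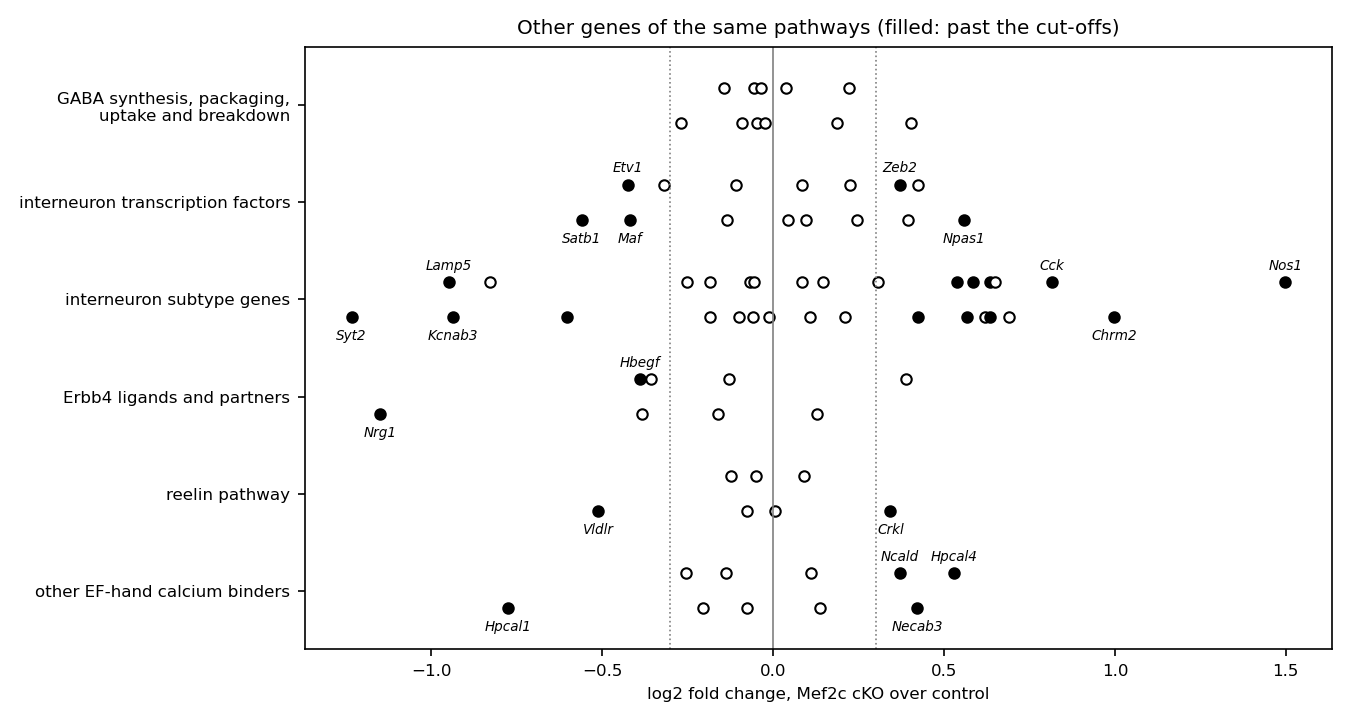
Log2 fold change of *Mef2c* cKO over control (x axis) for 81 of the 83 tested genes of 6 pathway lists (y axis), with filled points for genes past the cut-offs, some of them named, and dotted lines at 0.3 on either side of 0. The GABA list has no filled point, and the subtype list spreads widest, from *Syt2* at -1.23 to *Nos1* at 1.4985.

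Of 30 interneuron subtype genes, 4 fell, 9 rose and 17 did not pass, with a median log2 fold change of 0.13. Among those that fell, *Syt2*, a calcium sensor of parvalbumin terminals, had 60.5, 44.1 and 50.7 CPM in controls and 18.2, 23.3 and 24.4 CPM in cKO mice (log2 fold change -1.23, adjusted p = 3.09e-04). *Kcnab3*, a potassium channel subunit, had 134, 117 and 106 CPM in controls and 55.9, 68.2 and 62.0 CPM in cKO mice (log2 fold change -0.94, adjusted p = 2.30e-04). *Lamp5*, a membrane protein of neurogliaform cells that upper-layer pyramidal neurons also make, had 272, 255 and 233 CPM in controls and 108, 139 and 150 CPM in cKO mice (log2 fold change -0.95, SE 0.11). In each of these 3 genes the genotypes were well apart. Other genes of the list, named after their values were seen, varied in direction. *Ndnf* and *Kit* rose (log2 fold change 0.64 and 0.63, adjusted p = 0.0284 and 0.00286). *Kcnc1* (-0.01), *Kcnc2* (0.21), *Nxph1* (-0.05) and *Rpp25* (-0.07) did not pass. *Cox6a2* (-0.83, adjusted p = 0.0659), *Btbd11* (-0.25, adjusted p = 0.038) and *Elfn1* (-0.19, adjusted p = 0.108) were lower but did not pass either. The falls of *Syt2* and *Lamp5* are thus not read as changes of a whole cell class.

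Among those that rose, *Nos1*, the neuronal nitric oxide synthase, had 11.9, 13.0 and 12.4 CPM in controls and 45.8, 24.7 and 39.1 CPM in cKO mice (log2 fold change 1.4985, adjusted p = 6.83e-04). *Chrm2*, a muscarinic receptor, had 8.34 to 10.7 CPM in controls and 18.1 to 20.6 CPM in cKO mice (log2 fold change 1.00, adjusted p = 3.18e-04). *Cck*, a neuropeptide of both basket cells and pyramidal neurons, had 241 to 273 CPM in controls and 382 to 485 CPM in cKO mice (log2 fold change 0.82, adjusted p = 3.90e-04). All cKO mice lay above all controls in these 3 genes. The peptides *Sst* and *Npy*, named after their values were seen, also rose. *Sst* had 110, 127 and 124 CPM in controls and 233, 172 and 141 CPM in cKO mice (log2 fold change 0.57, adjusted p = 0.0344). *Npy* had 33.1, 36.2 and 39.1 CPM in controls and 64.2, 52.9 and 42.4 CPM in cKO mice (log2 fold change 0.54, adjusted p = 0.0251). Both calls were lost without *Mef2c* cKO replicate 2, control replicate 1 or control replicate 2, with adjusted p of 0.0690, 0.111 and 0.0695 for *Sst* and 0.0668, 0.0855 and 0.0702 for *Npy*. The call of *Sst* was also lost without control replicate 3 (adjusted p = 0.0741) and that of *Npy* without cKO replicate 1 (adjusted p = 0.0572). With the 12-week-old mice alone both calls were lost too, at log2 fold changes of 0.31 (adjusted p = 0.112) for *Sst* and 0.33 (adjusted p = 0.141) for *Npy*.

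Of 16 interneuron transcription factors, 4 fell, 2 rose and 10 did not pass, with a median log2 fold change of 0.07. *Satb1*, which acts in somatostatin cells and is also made by pyramidal neurons, had 211, 183 and 190 CPM in controls and 127, 136 and 132 CPM in cKO mice (log2 fold change -0.56, adjusted p = 4.36e-04). *Maf*, of the *Lhx6* branch, had 34.7 to 35.5 CPM in controls and 25.8 to 26.8 CPM in cKO mice (log2 fold change -0.42, adjusted p = 0.00189). *Etv1*, also a factor of layer V neurons, had 63.1 to 84.2 CPM in controls and 52.7 to 56.4 CPM in cKO mice (log2 fold change -0.43, adjusted p = 0.0170). *Npas1* rose (log2 fold change 0.56, adjusted p = 0.00734, and 0.0564 with the 12-week-old mice alone), as did *Zeb2*, a factor shared with glia (0.37, adjusted p = 0.0156). The call of *Etv1* was lost without cKO replicate 1 or 3 (0.0530 and 0.0506), and that of *Zeb2* without cKO replicate 3 or control replicate 2 (0.0511 and 0.0558).

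Of the *Erbb4* ligands and partner receptors, 8 of 9 were tested, 2 fell and none rose. *Nrg1*, a neuregulin and ligand of the receptor, had 15.2, 17.1 and 16.5 CPM in controls and 6.44, 7.61 and 7.85 CPM in cKO mice (log2 fold change -1.15, adjusted p = 1.28e-04). *Hbegf*, a second kind of ligand, fell from 13.5 to 13.9 CPM to 9.92 to 10.9 CPM (log2 fold change -0.39, adjusted p = 0.0152), and its call was lost without cKO replicate 3 or control replicate 2 (adjusted p = 0.0531 and 0.0553). In the reelin pathway, with 7 genes tested, the receptor *Vldlr* fell from 126 to 134 CPM to 86.0 to 97.7 CPM (log2 fold change -0.51, adjusted p = 6.65e-04). The adaptor *Crkl* rose by 0.34 on the log2 scale (adjusted p = 0.0223), a call lost without cKO replicate 1, cKO replicate 3 or control replicate 2 (adjusted p = 0.0612, 0.0756 and 0.0684), and the other 5 did not pass.

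Of 10 other EF-hand calcium binders tested, 1 fell and 3 rose. *Hpcal1*, of the visinin-like family, had 34.6, 43.0 and 34.5 CPM in controls and 22.6, 17.4 and 25.9 CPM in cKO mice (log2 fold change -0.77, adjusted p = 0.00605), again lowest in cKO replicate 2. Its relatives *Hpcal4* (log2 fold change 0.53, adjusted p = 0.00744) and *Ncald* (0.37, adjusted p = 0.00156) rose, as did *Necab3* (0.42, adjusted p = 0.00697). With the 12-week-old mice alone the calls of *Hpcal4* and *Necab3* were lost (adjusted p = 0.0925 and 0.0627).

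**Figure D5:**
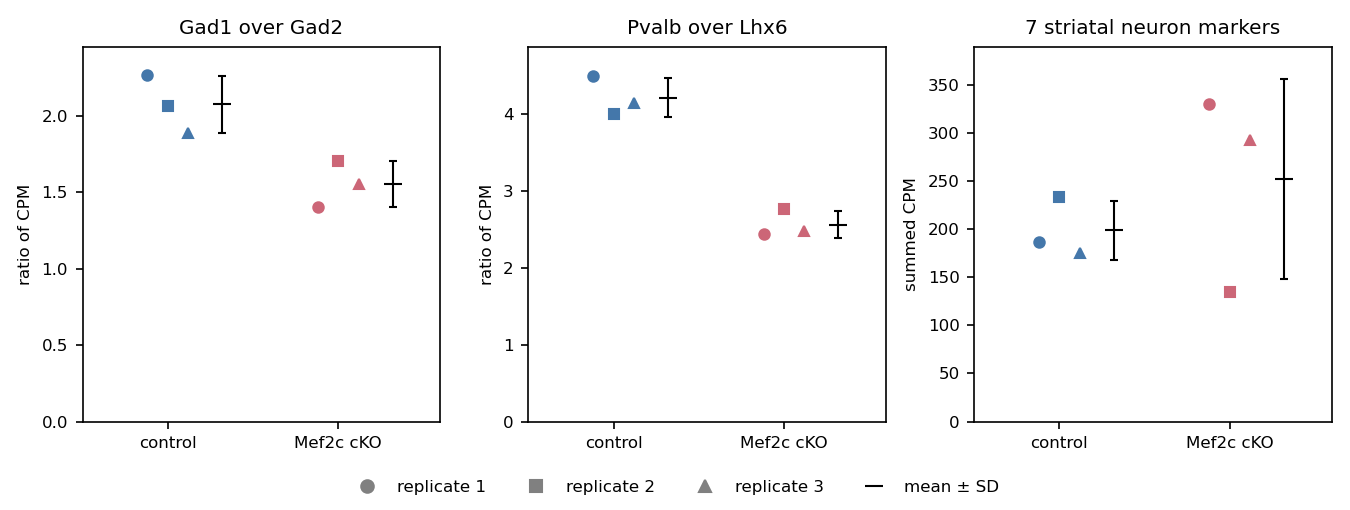
Ratio of *Gad1* to *Gad2* reads (left), ratio of *Pvalb* to *Lhx6* reads (middle) and summed CPM of 7 striatal neuron markers (right) in each control (blue) and *Mef2c* cKO mouse (red), all from 0, with the mean ± SD. Both ratios are lower in every cKO mouse, and in the right panel *Mef2c* cKO replicate 2 is lowest at 134 CPM while the other cKO mice are highest. That sum includes *Drd1*, which was higher in every cKO mouse than in any control.

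Markers of other cell types differed in part. The 6 astrocyte markers summed to 3984 to 4259 CPM in controls and 3502 to 3773 CPM in cKO mice, without overlap. Most of that sum was *Slc1a2*, at 3302 to 3578 CPM in controls and 2739 to 3014 CPM in cKO mice, which did not pass. Of the 6 markers 2 rose and 1 fell. The 5 microglia markers summed to 169 to 190 and 156 to 163 CPM, also without overlap, and none passed (3 with an unadjusted p under 0.05 in limma, 2 with voom weights, which called none). The 6 oligodendrocyte markers summed to 2614 to 4264 and 4165 to 5315 CPM, and none passed in the limma fit (4 with an unadjusted p under 0.05), while 1 passed with voom weights. No endothelial marker passed in either fit (1 of 5 with an unadjusted p under 0.05 in each), at sums of 209 to 231 and 200 to 210 CPM. Of 3 thalamic markers tested, 1 rose and 1 fell, and the 5 listed summed to 43.8 to 54.3 and 38.6 to 48.8 CPM. Of the 7 striatal markers, *Drd1* alone passed, at 17.7 to 21.4 CPM in controls and 49.6 to 77.4 CPM in cKO mice (log2 fold change 1.70, adjusted p = 8.76e-05). The part of these cell types in the values of the 10 genes was not tested.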

How the data were processed

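The authors selected polyA RNA, prepared directional libraries, aligned reads to mm9 with TopHat and Bowtie, counted them on UCSC mm9 genes with HTSeq and deposited RPKM values, 1 table per mouse, with 21759 rows. The 92 rows without a gene name (0.0197% to 0.0794% of reads) were left out. Genotype was taken from the labels. The members and lists were chosen with earlier results of these data known.

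Within each table the deposited RPKM were found to be whole reads over a short list of lengths (65 to 296 per table), repeated along the genes in text order of their Entrez gene IDs, so that 1 gene was divided by different lengths in different mice (for *Gad1*, 878 to 443707 bases). Reads and totals were recovered from this order for 99.9149% to 99.9941% of values above 0 and for every member. As a check, they summed to 99.8981% to 100.0425% of each total. The sum above the total, in control replicate 3, means that some recovered values there are not exact. On 3 simulated tables the same steps recovered at least 99.97% of values, with 99.99% or more of those counts correct. These tables were built on the gene order found in the data, so they cannot show an error in that order.

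Reads were divided by the sample total (CPM). Genes with CPM above 0.5 in every mouse of at least 1 genotype and counts in at least 2 mice of each were fitted with limma 3.58.1 (lmFit, eBayes with a variance trend) in R 4.3.3 on log2(CPM + 0.1), a scale that understates changes of low genes. A count model was not used on RPKM files. The cut-offs were an adjusted p under 0.05 (Benjamini-Hochberg over all tested genes) and an absolute log2 fold change above 0.3. Named are all members and, from each list, the genes past the cut-offs (at most 6, by fold change) or, with none, the 2 with most reads. Some genes that this rule names are not reported here, though they stay in the counts. Single ratios used exact permutation tests (scipy 1.17.1). The paper describes the controls as littermates, but nothing states which of these mice shared a litter. Litter is therefore not in the fit, and p-values measure the spread between these mice. Counting error alone is 9.17% of the value for the lowest member (119 reads) and less for the others. Gene coordinates and exon lengths are from gencode on NCBIM37 (mm9), which is not the authors' annotation file, and promoter sequences from RefSeq on GRCm38.p6. Alternatives covered the pseudocount, filter, scaling, variance model, pairing, age and each mouse. Tables and plots used Python 3.11.15, numpy 2.4.6, pandas 2.3.3 and matplotlib 3.10.9.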

Additional observations from a re-analysis of the deposited data

How the results depend on the processing

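The decreases of *Pvalb* (log2 fold change -0.89 to -0.70) and *Calb1* (-1.58 to -1.19) passed the cut-offs in all 17 alternatives that used recovered reads. With any single mouse removed, 2 to 3 members, 1652 to 1868 genes in all and 21 to 29 genes of the wider lists passed the cut-offs. With the 12-week-old mice alone 16 wider list genes passed, and the calls of *Npas1*, *Etv1*, *Hbegf*, *Crkl*, *Necab3*, *Hpcal4*, *Sst* and *Npy* were lost (adjusted p = 0.0564, 0.0868, 0.0696, 0.0916, 0.0627, 0.0925, 0.112 and 0.141), while *Reln* passed. The cause was not tested, beyond that fewer mice entered. The RPKM as deposited gave 14 of 7974 genes, 0 members of 6 tested and 0 wider list genes of 57 (limma, 1 and 7 with an unadjusted p under 0.05). There the lengths differ between mice. Values turned sign for *Gad1* (1.03), *Gad2* (-0.14), *Calb1* (0.67), *Reln* (2.44), *Glul* (0.54), *Kcnab3* (1.37), *Crkl* (-1.001), *Ncald* (-0.077), *Sst* (-1.38), *Npy* (-0.17) and *Drd1* (-0.26). Standard errors of the 6 members tested ran from 1.26 for *Erbb4* to 1.68 for *Gad1*. *Calb2*, *Lhx6*, *Sox6* and *Dlx1* were too low to be tested on the deposited RPKM. Otherwise the sign turned only for *Calb2*, which ran from -0.0375 without *Mef2c* cKO replicate 3 to 0.1403 without cKO replicate 2, and for *Glul* in the 12-week-old mice (0.0056). Same-numbered mice did not deviate together (r of -0.18, -0.11 and -0.08 over 14604 genes). With 3 mice per genotype this cannot show whether the numbers are pairs. With the replicate block 2 members, 1691 genes and 21 wider list genes passed, and the calls of *Hbegf*, *Sst* and *Npy* were lost (adjusted p = 0.0502, 0.0593 and 0.0582). Without a variance trend the calls of *Zeb2*, *Etv1*, *Crkl*, *Sst* and *Npy* were lost. Median-of-ratios scaling gave 2017 genes, and limma voom 2027. With 119 reads in the shallowest mouse, small changes of *Calb2* were not detectable.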
